A study of Homo sapiens with 4 samples.

Results

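Transcript levels of 8 genes linked to SMAD signaling were examined in cells losing MIB1, which encodes Mind Bomb 1, an E3 ubiquitin ligase. Of these, FKBP1A, LEMD3, IPO8, RGMB and ENAH are genes that the study names as correlates of MIB1 dependency in cancer cell lines. Among them the study places RGMB and IPO8 on the anticorrelated side, as genes that carry the signal onward. SKI, TGIF1 and TGIF2 encode corepressors of SMAD proteins. The 8 genes were chosen by name, out of 58302 genes listed, and each was matched by its Ensembl identifier. None was selected for a change in these libraries, although earlier results of these data were known when the genes were chosen.

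Ligands of the TGF-β family, which includes the BMPs, activins and TGF-β itself, assemble serine/threonine kinase receptors that phosphorylate receptor-regulated SMADs. These bind SMAD4, enter the nucleus and switch target genes on or off. The pathway is held back at several steps: FKBP12 keeps type I receptors silent without ligand, MAN1 binds receptor-regulated SMADs at the inner nuclear membrane, and SKI and TGIF proteins bring histone deacetylases to SMADs on DNA.

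The cells were NCI-H838, derived from a human non-small-cell lung cancer. Every sample, with or without dox, carried the same kind of construct. It held a guide RNA against MIB1, Cas9 under the control of doxycycline (dox) and a puromycin resistance gene, integrated by piggyBac, and such cells are called MIB1-iKO. The no dox group (n = 2) and the dox group (n = 2, 0.5 μg/mL) were both collected at day 3 under basal BMP signaling. The study's methods describe single-cell clones of these cells, without saying which was sequenced. No group received dox without the guide, so an effect of dox itself cannot be told apart from that of the knockout. Total counts were 21207419 to 24398411 without dox and 15943025 to 17048990 with dox. The labelled lung origin was checked against marker genes. The epithelial genes EPCAM, KRT7, KRT8, KRT18 and CDH1 were present, whereas KRT19 and the lung lineage genes NKX2-1 and SFTPB were listed at 0 and SFTPC and NAPSA had between 2 and 8 reads. The leukocyte genes PTPRC and CD68, the endothelial gene KDR and the fibroblast gene COL1A2 were at 0. The leukocyte gene CD3E, the endothelial genes PECAM1, CDH5 and VWF, and the fibroblast genes DCN and PDGFRB had 0 to 10 reads. The monocyte gene CD14 had 128 to 185 reads and COL1A1 had 22 to 89.

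MIB1, the targeted gene, was examined first. It was covered by 598 and 588 reads in the no dox libraries, against 90 and 59 in the dox libraries. On the RPKM scale (reads per kilobase, scaled for depth, as the authors deposited them) its level was 2.66 and 2.81 without dox and 0.617 and 0.340 with dox. The log2 fold change was -2.58 (SE 0.23, adjusted p = 0.0003748, limma-voom), lower in both dox libraries, as their labels imply.

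None of the 8 genes was called as changed by dox. A call required a change of 2-fold or more with an adjusted p not above 0.05 in limma-voom. Of the 16181 genes tested, 0.0371% met it (0.0247% higher with dox and 0.0124% lower), and 0.068% met the adjusted p alone, as did 0 of the 8. All 8 genes passed the filter on low counts. At an unadjusted p under 0.05 the count was also 0 of 8, against 9.28% of all genes tested (4.68% higher and 4.59% lower), and edgeR called 0 of 8 as well. DESeq2 called 0 of the 6 genes to which it gave an adjusted p, its independent filtering having left out RGMB and SKI. The dox libraries did not overlap the no dox libraries in normalised log2 CPM for 3 of the 8 genes (FKBP1A, TGIF1 and RGMB), and the same held for 38.6% of all genes. With 2 samples against 2, an exact permutation test cannot give a two-sided p below 0.333, so separation of the groups for a single gene is no evidence of change.

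How tightly a change was bounded depended on the gene. The 95% interval of the fold change stayed within 1.5-fold either way for 5 of the 8 genes (IPO8, FKBP1A, TGIF1, TGIF2 and ENAH), as it did for 50.9% of all genes tested. It stayed within 2-fold for 6 genes, LEMD3 being the further one, against 77.4% of all genes. For SKI and RGMB, both with few reads, the interval reached beyond 2-fold, so a change of that size was not excluded.

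**Figure D1:**
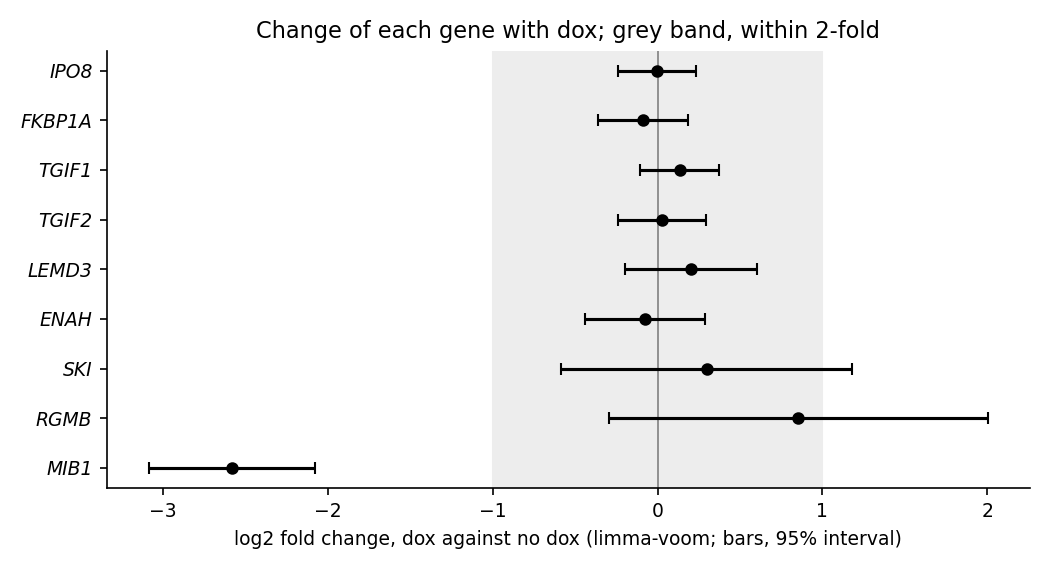
Log2 fold change of each of the 8 genes and of MIB1, dox against no dox (n = 2 per group, limma-voom; points, estimates; bars, 95% intervals; grey band, within 2-fold). The intervals of all 8 genes include 0, those of SKI and RGMB are the widest, and MIB1 lies at -2.58.

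The genes spanned a wide range of levels. Ordered by mean RPKM over the 4 libraries they were IPO8 (32.2), FKBP1A (17.1), TGIF1 (15.5), TGIF2 (12.5), LEMD3 (3.07), ENAH (1.19), SKI (0.212) and RGMB (0.123), a ratio of 262.5 from top to bottom. Neighbours in this order whose ranges over the libraries overlapped were FKBP1A and TGIF1, and SKI and RGMB; the other neighbours did not overlap. IPO8 lay at the 84.4th percentile of the genes tested and RGMB at the 1.24th. The place of FKBP1A rests on the gene model behind the deposited RPKM. Its RPKM corresponded to a model of about 2264 bases, whereas its exons in GENCODE release 44 cover 5973 bases, and per kilobase of the latter FKBP1A (6.50 CPM per kilobase, CPM being reads scaled to a common library total) stood below both TGIF1 (13.1) and TGIF2 (11.4). That recalculation was chosen after the values were seen.

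**Figure D2:**
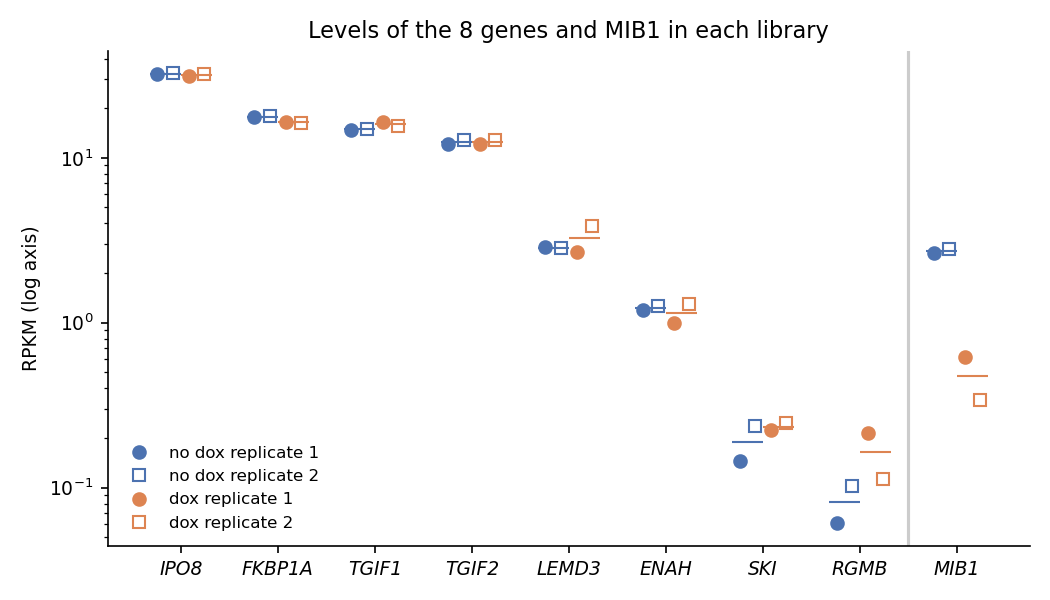
RPKM of the 8 genes and of MIB1 in each library, on a log axis (circles, replicate 1; squares, replicate 2; blue, no dox; orange, dox; horizontal lines, group means of 2 samples). IPO8 is highest at 31.5 to 32.6 in all 4 libraries, SKI and RGMB lie below 0.25, and MIB1 is the gene whose groups stand far apart.

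FKBP1A encodes FKBP12, the small immunophilin that binds FK506 and rapamycin and occupies the glycine- and serine-rich segment of type I receptors. The gene lies on the minus strand of chromosome 20 (chr20:1368977-1393164, GRCh38). Part of its coding sequence recurs almost unaltered elsewhere, which matters for reads of 50 bases, as sequenced here. The coding sequence of 324 bases was 98.15% identical to that of FKBP1C on chromosome 6, with 6 differing bases, and 94.3% identical over 315 aligned bases to the processed pseudogene FKBP1AP1 on chromosome 19. FKBP1C is annotated as protein coding. The paralog FKBP1B, encoding FKBP12.6, was less alike, at 75.4% identity over 317 aligned bases. A window of coding bases 200 to 249 shows how far a single read could tell them apart. It lies within 1 exon of FKBP1A (chr20:1372190-1372239, minus strand), and corresponds to chr6:63211756-63211805 (plus strand) in FKBP1C, chr19:57826539-57826588 (minus strand) in FKBP1AP1 and chr2:24063065-24063114 (plus strand) in FKBP1B. Capitals mark bases that differ from FKBP1A.
FKBP1A: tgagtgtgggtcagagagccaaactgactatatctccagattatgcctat
FKBP1C: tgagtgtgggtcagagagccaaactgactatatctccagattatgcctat
FKBP1AP1: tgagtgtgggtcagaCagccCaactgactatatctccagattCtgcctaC
FKBP1B: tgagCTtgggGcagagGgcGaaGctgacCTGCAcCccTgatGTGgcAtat
A read of this window fits FKBP1A and FKBP1C equally, differs from FKBP1AP1 at 4 bases and from FKBP1B at 17. Over the coding sequence, 152 of 275 windows of 50 bases were identical in FKBP1C and 33 in FKBP1AP1, and none in FKBP1B. Over all exons of FKBP1A, noncoding ends included, 8.84% of the windows had a further exact copy in the genome. In the other members this share lay between 0% (RGMB) and 3.32% (ENAH).

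FKBP1A was covered by 944 and 884 reads in the no dox libraries, against 573 and 664 in the dox libraries. The RPKM values were 17.75 and 17.8 without dox (17.8 ± 0.066, SD, n = 2) and 16.6 and 16.2 with dox (16.4 ± 0.30, n = 2), and both dox libraries were lower than both others. This amounted to a log2 fold change of -0.09 (SE 0.13, 95% interval -0.36 to 0.18, adjusted p = 0.880, limma-voom). FKBP1C carried 88 and 107 reads in the no dox samples and 65 and 77 in the dox samples, and FKBP1AP1 41, 37, 22 and 37, together between 13.7% and 17.2% of the FKBP1A count in a library. How the counting divided reads that fit several of these genes is not given in the sources used here. With the reads of all 3 genes summed, a check added after the values were seen, the log2 fold change was -0.07 (adjusted p = 0.909). SDCBP2-AS1, annotated on the opposite strand with 515 exonic bases in common, had 134, 83, 52 and 58 reads, and without knowledge of strand in the counting its reads there cannot be told apart from those of FKBP1A. The overlapping genes ENSG00000274322, a read-through with 183 exonic bases in common, and MIR6869 were listed at 0, as were the pseudogenes FKBP1AP2, FKBP1AP3 and FKBP1AP4. FKBP1B had fewer reads (523, 386, 316 and 310), but its deposited RPKM of 15.9 to 20.6 was close to that of FKBP1A. The ratio of FKBP1A to FKBP1B within a library ran from 0.859 to 1.09. This closeness rests on the gene models behind the deposited RPKM, and FKBP1B was not recalculated on GENCODE lengths. In the FKBP family, prolyl isomerases of which several reside in the endoplasmic reticulum, 14 of 15 genes were tested and none was called. Their log2 fold changes ran from -0.29 for FKBP5, a cochaperone of steroid receptors, to 0.26 for FKBP8, an anchored mitochondrial member. Type I receptors, the binding partners of FKBP12, were tested in 4 of 7 cases with none called, the extremes being ACVR1B (-0.44, with 18 and 74 reads in the dox libraries) and TGFBR1 (0.04).

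RGMB is a membrane-anchored repulsive guidance molecule that acts as a BMP coreceptor and binds neogenin. It lies at chr5:98768650-98798643 on the plus strand and was the lowest of the 8 genes. There were 7 and 11 reads in the no dox samples and 16 and 10 in the dox samples. In CPM, with exact 95% Poisson intervals that cover counting error only, the level was 0.287 (0.115 to 0.591) and 0.519 (0.259 to 0.928) without dox. With dox it was 1.00 (0.574 to 1.63) and 0.587 (0.281 to 1.08). The intervals of all 4 libraries overlapped one another, those of no dox replicate 1 and dox replicate 1 only narrowly, and overlap is not a test of difference. The group sums gave 0.395 (0.234 to 0.624) without dox and 0.788 (0.515 to 1.155) with dox. The log2 fold change of 0.86 (SE 0.54, 95% interval -0.29 to 2.00, adjusted p = 0.669) was the largest of the 8 and also the least certain, and it was 0.46 without dox replicate 1 and 0.53 without no dox replicate 1. On log2(RPKM + 0.1) it was 0.52 and on log2(RPKM + 1) 0.10. A long noncoding gene on the opposite strand, ENSG00000279232, shares 2682 of the 6643 exonic bases of RGMB and had 0, 0, 0 and 2 reads. RGMB-AS1, also on the opposite strand, had 0 to 4. Without knowledge of strand in the counting, how reads in the shared bases were assigned is not known. RGMA, the paralog, was also scarce, with 15 and 25 reads in the no dox samples and 8 and 7 in the dox samples (log2 fold change -0.93, SE 0.53, adjusted p = 0.627). NEO1, the gene of neogenin, was the abundant gene of this group at 0.945 to 1.13 RPKM, with a log2 fold change of 0.07.

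IPO8 encodes importin 8, an importin-β family carrier that takes SMADs and other cargo through the nuclear pore. It lies at chr12:30628988-30695869 on the minus strand. The no dox libraries held 4293 and 4049 of its reads, and the dox libraries held 2726 and 3334, and its RPKM was 32.2, 32.6, 31.5 and 32.4 in the same order. The groups overlapped. Dox against no dox gave a log2 fold change of -0.0025 (SE 0.11, 95% interval -0.24 to 0.23, adjusted p = 0.998). The processed pseudogene IPO8P1 had 32, 27, 14 and 24 reads. Among the 12 importin-β genes listed, all of them tested, IPO8 had the highest mean RPKM. Within each library its level was 3.18 to 3.27 times that of IPO7, the closest paralog, and 1.05 to 1.38 times that of IPO5. None of the 12 was called, and the log2 fold changes ran from -0.37 for RANBP6, a relative of IPO5 (adjusted p = 0.452), to 0.18 for TNPO1, transportin 1. Among 6 genes of SMAD export and the nuclear pore none was called, from RANBP3 (-0.21), an export factor for SMAD2 and SMAD3, to XPO4 (0.28), an exportin for SMAD3.

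LEMD3 encodes MAN1, an inner nuclear membrane protein whose LEM domain binds BANF1 and whose C terminus binds receptor-regulated SMADs. It lies at chr12:65169583-65248355 on the plus strand. Its reads numbered 323 and 295 in the no dox group and 195 and 334 in the dox group. Its RPKM was 2.885 and 2.83 without dox and 2.69 and 3.87 with dox, so that dox replicate 1 was the lowest and dox replicate 2 the highest of the 4 libraries. Its log2 fold change was 0.20 (SE 0.19, 95% interval -0.20 to 0.60, adjusted p = 0.787). It was -0.070 without dox replicate 2 and 0.46 without dox replicate 1, so its sign rested on a single library. ENSG00000276853, a noncoding gene within LEMD3, was listed at 0. In the LEM domain family 6 of 7 genes were tested, and LEMD3 took place 5 by mean RPKM. TMPO, encoding the lamina-associated LAP2 proteins, was the highest at 5.77 to 9.17 times the LEMD3 level within a library. None of the family was called, and ANKLE1, a LEM domain endonuclease with 9 to 25 reads, had the lowest log2 fold change (-0.24). Of 7 genes of the inner nuclear membrane and lamina none was called. LMNB2, a B-type lamin, had the lowest log2 fold change (-0.39, adjusted p = 0.452) and BANF1 the highest (0.18).

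ENAH encodes Mena, an actin regulator of the Ena/VASP family that speeds filament growth at the leading edge. It lies at chr1:225486765-225653142 on the minus strand. In the no dox samples 391 and 385 reads fell on the gene, and in the dox samples 211 and 328, and its RPKM was 1.20, 1.27, 0.999 and 1.31. As for LEMD3, dox replicate 1 was the lowest library and dox replicate 2 the highest. Between the groups the log2 fold change was -0.08 (SE 0.17, 95% interval -0.44 to 0.29, adjusted p = 0.929), and lay between -0.28 and 0.12 when either dox library was left out. The pseudogene ENAHP1 had 0 to 1 reads. VASP was the main family member, at 17.0 to 20.6 times the ENAH level within a library, and EVL was lower than ENAH in each library. VASP (-0.01) and EVL (-0.16) were not called. Of 8 genes of Ena/VASP partners 7 were tested, none was called, and the log2 fold changes ran from -0.13 for TES, a zyxin-like LIM protein that binds Mena, to 0.17 for RAPH1, lamellipodin.

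SKI, the cellular homolog of a retroviral oncogene, binds SMAD complexes and recruits corepressors such as SIN3. It lies at chr1:2227388-2310213 on the plus strand. It was covered by 19 and 29 reads in the no dox libraries, against 19 and 25 in the dox libraries, and its RPKM was 0.144, 0.236, 0.222 and 0.246. No dox replicate 1 was low and the other 3 libraries were close to each other. In CPM, the group sums gave 1.05 (exact 95% Poisson interval 0.776 to 1.40) without dox and 1.33 (0.969 to 1.79) with dox. Its log2 fold change was 0.30 (SE 0.41, 95% interval -0.58 to 1.18, adjusted p = 0.875) and ran from -0.10 without no dox replicate 1 to 0.64 without no dox replicate 2. The exons of SKI were the richest in G and C of the 8 genes, at 61.7% against 40.6% to 54.0%. The paralog SKIL, encoding SnoN, was expressed at 28.5 to 43.0 times the SKI level by RPKM, with 1051 and 1132 reads in the no dox samples and 750 and 917 in the dox samples. Its log2 fold change was 0.09 (adjusted p = 0.881). The remaining 4 genes of the SKI and DACH family were not tested for want of reads, and 3 of them were listed at 0.

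TGIF1 and TGIF2 are TALE-class homeodomain proteins that bind SMAD2 and SMAD3 and recruit histone deacetylases. TGIF1 lies at chr18:3411608-3459978 on the plus strand, on the same chromosome as MIB1. The no dox libraries held 2371 and 2246 of its reads, and the dox libraries held 1725 and 1920. Its RPKM was 14.8 and 15.03 without dox (14.9 ± 0.18, SD, n = 2) and 16.6 and 15.5 with dox (16.1 ± 0.75, n = 2), both dox libraries being the higher. This was a log2 fold change of 0.135 (SE 0.11, 95% interval -0.10 to 0.37, adjusted p = 0.755), a ratio of 1.10.

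TGIF2 lies at chr20:36573488-36593950 on the plus strand. Its reads numbered 1031 and 1010 in the no dox group and 666 and 835 in the dox group, and its RPKM was 12.2, 12.8, 12.1 and 12.8. In both groups replicate 1 was the lower, and the groups overlapped. Its log2 fold change was 0.03 (SE 0.12, 95% interval -0.24 to 0.30, adjusted p = 0.969). The read-through gene TGIF2-RAB5IF had 0 to 2 reads and the pseudogene TGIF1P1 1 to 5, while BOD1P1, within TGIF1, had 0 to 1 and TGIF2P1 was listed at 0. TGIF1 exceeded TGIF2 in each library, by a ratio of 1.18 to 1.37 as deposited, but on the lengths of GENCODE release 44 their ranges overlapped. They were the highest and the next of the 11 TALE homeobox genes listed. TGIF1 was 4.17 to 4.76 times the level of PKNOX1. Of the 10 TALE genes tested none was called, and the log2 fold changes ran from -0.24 for MEIS2 to 0.54 for MEIS1, both HOX cofactors.

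**Figure D3:**
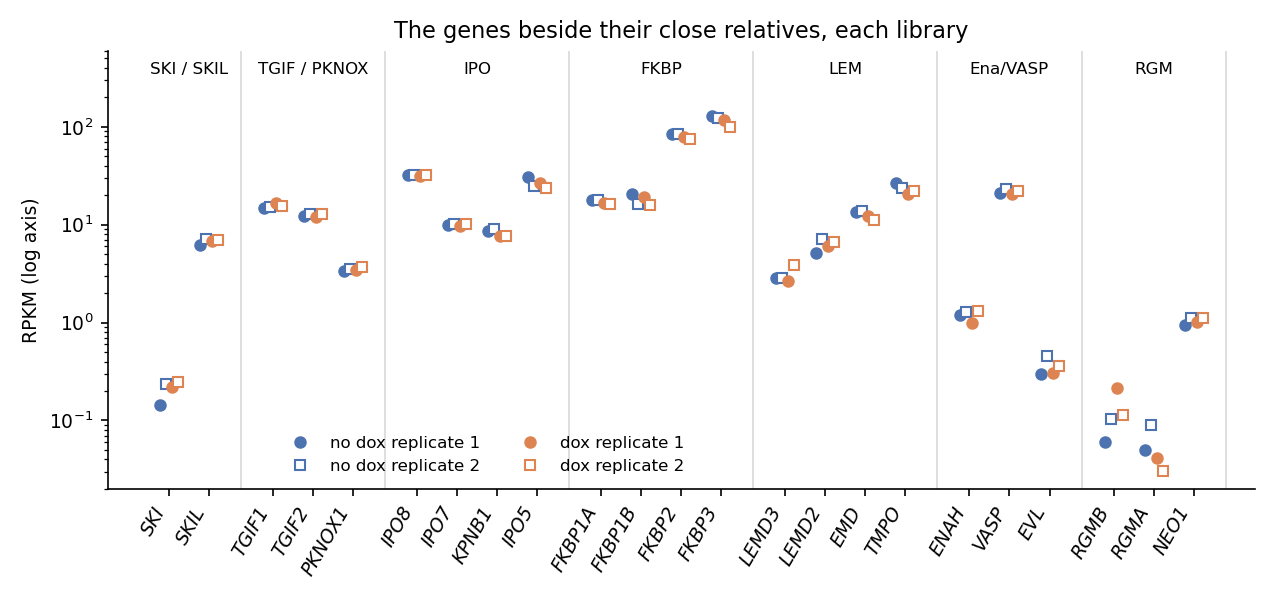
RPKM, on a log axis, of the 8 genes beside close relatives in each library (circles, replicate 1; squares, replicate 2; blue, no dox; orange, dox). IPO8 exceeds IPO7 3.18- to 3.27-fold, SKIL exceeds SKI 28.5- to 43.0-fold and VASP exceeds ENAH 17.0- to 20.6-fold in every library. FKBP1A and FKBP1B lie close together on this scale, which rests on the gene models behind the deposited RPKM.

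The partners and regulators of these proteins were then counted, from 17 lists holding 123 genes besides the 8. Of these, 110 were tested. A single gene was called, SMAD9, a BMP-responsive receptor-regulated SMAD (log2 fold change 2.20, adjusted p = 0.0265). In the no dox samples 20 and 24 reads fell on the gene, and in the dox samples 60 and 96. It was not called by DESeq2 with its independent filtering, without a filter on low counts or on the RPKM scale. Over the 110 genes the log2 fold change was above 0 for 46 and below 0 for 64, with a median of -0.04, against a median of -0.0004 and 49.9% above 0 among all genes tested. An unadjusted p under 0.05 was reached by 11 of the 110, against 9.28% of all genes. None of the 14 corepressor partners was called, which include histone deacetylases and the SIN3 and CtBP proteins. The lowest log2 fold change among them was that of RBBP7 (-0.19), a histone-binding subunit of deacetylase complexes. None of the 6 SMAD coactivators was called, from KAT2B (-0.35) to MED15 (0.14), and none of the 4 ubiquitin ligases or ligase subunits acting on SKI, SKIL or TGIF1, from FBXW7 (-0.03) to RNF111 (0.16). Among other nuclear SMAD antagonists 9 of 10 genes were tested, and none was called. TOB1, an antiproliferative protein that binds SMADs, had the lowest value (-0.38, adjusted p = 0.306, or 0.0002433 with the replicate number as a block). Its RPKM was 45.1 and 41.8 without dox and 33.1 and 32.2 with dox. ZEB1, a zinc-finger repressor, had the highest value (0.33, adjusted p = 0.528, or 0.0193 with the block). With the block, FKBP3, FKBP8, RANBP6, IPO9, TMPO, LBR, LMNB2, RBBP7 and ID1 also met the adjusted p alone, each changing less than 2-fold. SMAD9 was again called, and 1154 of the 16181 genes tested met the adjusted p with the block. The 5 other dependency correlates of MIB1 listed were BAMBI, ID1, ID3, SMAD6 and SMAD7. All had log2 fold changes above 0, and none was called. The highest was SMAD6 (0.77, adjusted p = 0.503), a gene with only 29 to 46 reads per library. The lowest adjusted p of the 5 was that of ID1 (log2 fold change 0.49, adjusted p = 0.167), whose counts ranged from 2326 to 2663. With the block, a pairing that the design does not establish, the adjusted p of ID1 was 2.5e-07.

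**Figure D4:**
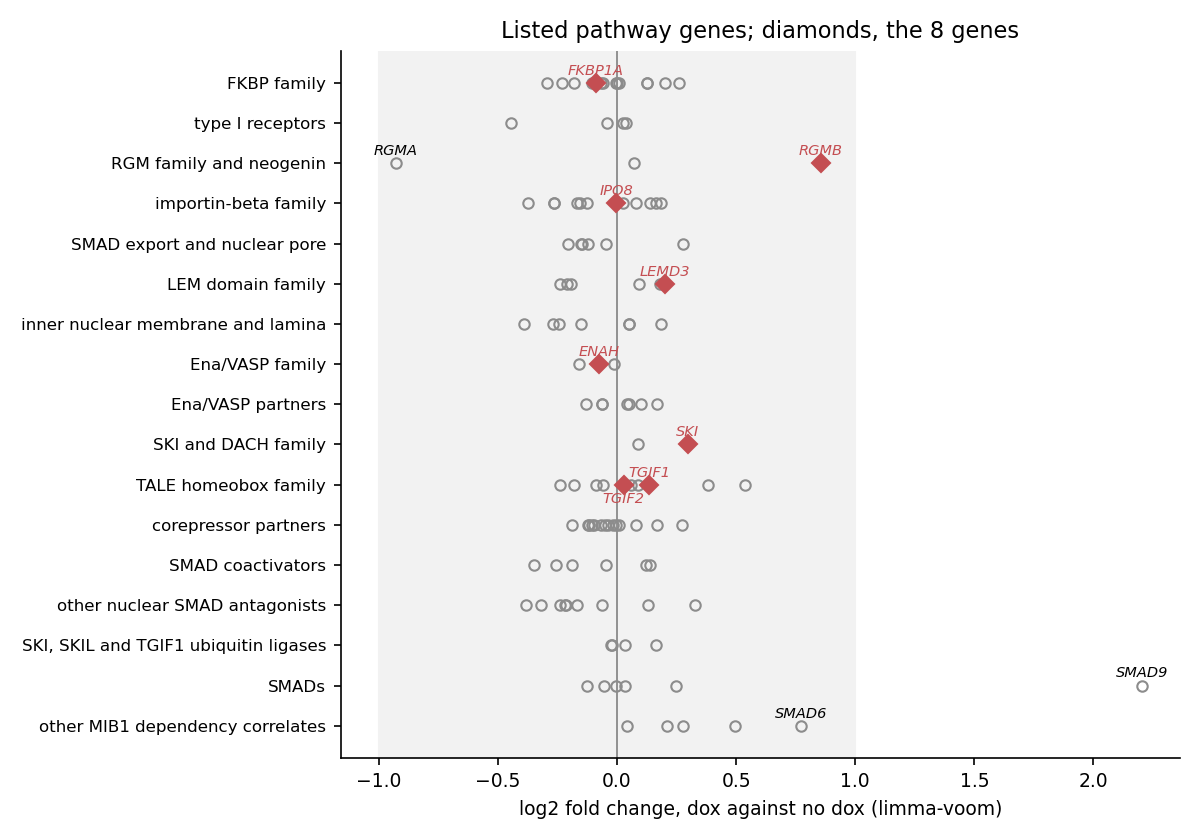
Log2 fold change, dox against no dox, of the tested genes of each list (open circles) and of the 8 genes (diamonds); the grey band marks changes within 2-fold, and genes past 0.6 either way are named. SMAD9, at 2.20, lies alone outside the band, and the diamonds other than RGMB lie between -0.09 and 0.30.

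Cycling was examined beside these values. Of 15 DNA replication genes, all had log2 fold changes below 0 (median -0.37, 10 at an unadjusted p under 0.05, against 4.59% of all genes in this direction). None was called, and their part in the values above was not tested.

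For each gene, the 2 genes with the most similar profile over the 4 libraries were found among those with a mean count of at least 50, by the Euclidean distance of centred log2 CPM. They were COX11 and DDA1 for FKBP1A, NDRG3 and MT2A for IPO8, SMURF1 and PHIP for LEMD3, DNAJA4 and RNF217 for ENAH, PPP1R18 and TRPV2 for SKI, PIBF1 and NEK9 for TGIF1, and IPO7 and GAPVD1 for TGIF2. For TGIF2 3617 genes lay within a distance of 0.2, for IPO8 3422 and for FKBP1A 3309, so profiles this flat were common. LEMD3 had 229 such genes and SKI 39. RGMB had none, and its nearest were GCNT3 (0.284) and PIP5KL1 (0.296). With mean counts of 23 and 11, SKI and RGMB lay below the cutoff and were compared only with genes of more reads. Their few neighbours therefore do not mark unusual profiles.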

How the data were processed

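Gene expression in MIB1-iKO cells of the NCI-H838 line was read from RNA-seq of 2 no dox and 2 dox samples at day 3, grouped and numbered as in the sample labels. As the study describes it, ribosomal reads were discarded, single-end reads of 50 bases were placed on GRCh38 by GSNAP, and HTSeqGenie was used to count those falling on exons. The deposited counts are whole reads per gene, not normalized. The authors also deposited RPKM, which carry a further scaling per sample beyond the total count. A RefSeq annotation is named although the identifiers are Ensembl, and the sources used here do not say which of a low-input and a stranded kit was used, whether counting used strand, or how reads that fit several genes were treated. The study calls the replicates of each condition biological, without saying in the sources used here how their cultures were kept apart. The p-values rest on the spread between these samples, pooled in large part over all genes tested.

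Genes were kept by filterByExpr (16181), brought to common quantiles after scaling by total count, weighted with voom and compared with limma 3.58.1 in R 4.3.3, with Benjamini-Hochberg adjustment over all genes tested. Intervals and standard errors are limma's moderated ones, with 12.29 prior degrees of freedom drawn from all genes tested. The bounds on each gene therefore depend more on that pooled spread than on its own. Levels were read from RPKM. Symbols, positions and exons are those of GENCODE release 44 on GRCh38. Exact copies of each exonic window of 50 bases were searched on both strands of the genome, and FKBP1A was aligned with its copies in Biopython 1.88. The fits were tested on simulated data, with changes of more than 2-fold placed only in genes of higher counts than SKI and RGMB. Every simulated gene was given the same dispersion, with no effect of replicate number. That test does not bear on these low counts, on smaller changes or on the spread of the real libraries. Total counts of 15943025 to 24398411 limit the precision of SKI and RGMB. No library repeated another: chi-square per degree of freedom was at least 8.18 for each pair.

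The 8 genes and all lists were chosen with earlier results of these data known. Of each list the called genes are named, and otherwise the tested genes with the highest and the lowest log2 fold change. The highest of the corepressor partners is not reported here. Overlapping genes, read-through genes and pseudogenes of the 8 are named, with the 2 nearest profiles of each. Relatives named for their level only, genes named for the replicate block, the values of ID1 and the window of FKBP1A were chosen after the values were seen. Alternatives were edgeR 4.0.16, DESeq2 1.42.0, other normalizations, filters and scales, the replicate number as a term and leaving out each library. DESeq2 without independent filtering, summed FKBP1A copies and levels on GENCODE lengths were chosen after seeing the data.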

Additional observations from a re-analysis of the deposited data

How the results depend on the processing

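Over 79 values of the 8 genes under tested alternatives, none was called (2 had no adjusted p), and 77 kept their direction. The lowest adjusted p was 0.290 (TGIF1, replicate block). TGIF2 turned to -0.0042 with limma on log2(RPKM + 0.1) and to -0.0039 on log2(RPKM + 1), and RGMB and SKI had no value at a mean count of at least 50 and no adjusted p in DESeq2. Leaving out each library in turn, where a lone sample leaves no test, gave log2 fold changes of -0.10 to -0.08 for FKBP1A, -0.070 to 0.46 for LEMD3, -0.08 to 0.07 for IPO8, 0.46 to 1.27 for RGMB, -0.28 to 0.12 for ENAH, -0.10 to 0.64 for SKI, 0.10 to 0.17 for TGIF1, -0.01 to 0.07 for TGIF2 and -3.00 to -2.16 for MIB1. MIB1 was not called without a filter (-2.58, adjusted p = 0.613), on log2(RPKM + 0.1) (-2.33) or on log2(RPKM + 1) (-1.34). Of all genes, 6 were called, against 2 by DESeq2, 5 by DESeq2 without independent filtering, 0 without a filter (2092 at an unadjusted p under 0.05), 0 on either RPKM scale (1442 and 1438), 11 by adjusted p alone and 78 with the replicate block (1154 by adjusted p alone). Of the listed pathway genes, 1 was called, against 0 by DESeq2, whose independent filtering left SMAD9 without an adjusted p, 0 without a filter and 0 on either RPKM scale. Other causes were not tested. The labels do not say what a replicate number stands for, so the design does not establish the pairing. The deviations of the same-numbered samples, from 2 pairs, had r = 0.134 over all genes tested. Genes of low counts were included unweighted, so this r cannot decide the question. As a hint from the data, chi-square per degree of freedom was 8.26 and 8.18 between same-numbered libraries of different groups, against 9.34 and 13.1 within groups and 15.8 and 15.9 across numbers. The block called none of the 8 genes.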
